A study of Rattus norvegicus with 65 samples.

Results

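Doxorubicin (Dox) and 5-fluorouracil (5FU) are chemotherapeutics that can harm the heart, and the comparison described here asks which genes of cultured heart cells answered them alike after 24 hours and which did not. For each gene, the log2 change of Dox_24 against its solvent control DMSO2_24 (the Dox effect) and that of 5FU_24 against its control DMSO1_24 (the 5FU effect) were estimated, and the 5FU effect was subtracted from the Dox effect (the difference of effects). The comparison takes 26 of the 65 RNA sequencing libraries of the series and all 14554 genes of the count table, without any selection of genes by their values. The 4 groups are 7 libraries of Dox_24 (1.25 μM Dox with 0.25% DMSO), 7 of DMSO2_24 (0.25% DMSO alone), 6 of 5FU_24 (10 mM 5FU with 1% DMSO) and 6 of DMSO1_24 (1% DMSO alone). All were primary cardiomyocyte cultures from newborn rats, starved of serum overnight and then exposed for 24 hours. Litters were pooled into a shared cell preparation, which makes the libraries parallel cultures, and the p-values measure the spread between cultures, not between animals. Each drug was given at a single dose, and the doses and the DMSO shares differed. A difference between the drugs can therefore not be told apart from a difference in how strongly each was dosed.

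Dox slips between the bases of DNA, traps topoisomerase II on cut DNA and displaces histones, and it is known for a dose-dependent weakening of the heart muscle. 5FU is turned into nucleotides that block thymidylate synthase and are built into RNA and DNA, and in patients its cardiac harm is mostly chest pain and disturbed rhythm. Both activate p53, the transcription factor that answers DNA and nucleolar damage, and cardiomyocytes of newborn rats are leaving the cell cycle while they build their sarcomeres, calcium stores and mitochondria.

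Total counts ran from 14332827 to 25738297 per library, and 12107 genes had at least 10 counts in each of the 26 libraries. No 2 libraries of a group agreed within sampling noise: over the 72 pairs within groups, the chi-square per gene was 2.98 to 82.2. A pair of libraries stood apart. In library 1 of DMSO1_24, 518 genes lay more than 1 log2 unit from the group median, and in library 7 of Dox_24, which also had the highest total, 379 did, against 135 to 227 in the other 24. To place each library between control and drug, its log2 values were set on a line from 0 (mean of the control libraries) to 1 (mean of the treated libraries), the library itself left out of both means. The genes were called genes that average 100 counts or more and had an effect of at least 1 log2 unit in the fit without that library. On 809 genes of the 5FU effect, library 1 of DMSO1_24 stood at 0.42, so this control resembled 5FU-treated cells in part. Each placed on 617 to 685 genes, the other 5 DMSO1_24 libraries stood at -0.091 to -0.057 and the 5FU_24 libraries at 0.945 to 1.04. On the Dox line, the DMSO2_24 libraries stood at -0.01 to 0.013 and the Dox_24 libraries at 0.97 to 1.06. Leaving out library 1 of DMSO1_24 turned no sign among called genes, but it moved the difference of effects of 85 genes by more than 1.5-fold, ended 240 calls and added 198. Leaving out library 7 of Dox_24 moved 15 genes, ended 180 calls and added 149. Values without library 1 are given beside many of the named genes whose call or size rests on it. For some others only its level beside the other controls is given, and for the rest neither.

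**Figure D1:**
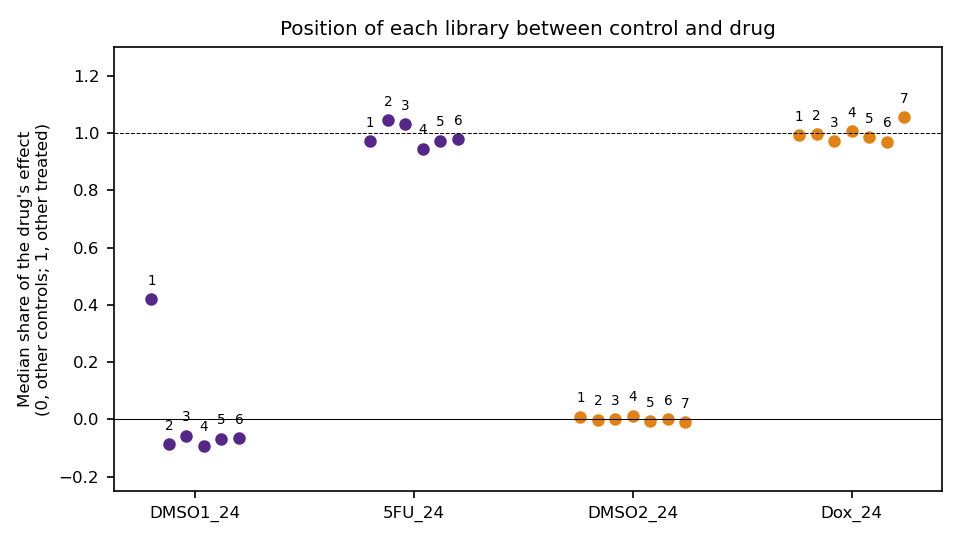
Position of each library on the line from control (0) to treated (1), each library set against the means of the other libraries. The vertical axis is a median over genes of the 5FU effect for DMSO1_24 and 5FU_24 (purple) and of the Dox effect for DMSO2_24 and Dox_24 (orange), and each point is a library, numbered within its group as a name only. Library 1 of DMSO1_24 lies at 0.42, between the other DMSO1_24 libraries and the 5FU_24 libraries, and all Dox_24 and DMSO2_24 libraries lie near 1 and 0.

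Genes were called at a Benjamini-Hochberg false discovery rate (FDR) below 0.01 in edgeR's quasi-likelihood test, and a called gene is termed a DEG below. Levels are given in CPM, the count as a share of the TMM-scaled library total, effects as log2 fold change ± SE. The Dox effect made DEGs of 11846 genes (81.4%), with 5882 higher (40.4%) and 5964 lower (41%). The 5FU effect made DEGs of 8117 (55.8%), with 4070 higher (28%) and 4047 lower (27.8%). The 2 effects differed for 10355 genes (71.1%): the difference of effects was positive, that is more positive under Dox, for 5209 (35.8%) and negative for 5146 (35.4%). Its median over all genes was 0.03. Dox moved the transcriptome further, with a median absolute effect of 0.77 against 0.35 for 5FU, at a median SE of 0.08 and 0.09. A change of at least 1 log2 unit was reached by 5688 DEGs of Dox (2878 higher, 2810 lower) and by 1490 of 5FU, where losses were more frequent (316 higher, 1174 lower).

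Of the 6779 genes that were DEGs of both drugs, 4357 (64.3%) moved in the same direction, 1986 higher and 2371 lower. These are 36.8% of the Dox list and 53.7% of the 5FU list. The other 2422 moved in opposite directions, 1019 higher under Dox and lower under 5FU and 1403 the reverse, which is 20.4% of the Dox list and 29.8% of the 5FU list. Sharing a direction did not always mean sharing a size: for 2600 of the 4357 genes the effects differed, and for 1350 (31%) the 95% interval of the difference lay within 0.5 log2 units of 0. A further 5067 genes were DEGs of Dox alone, of which 4244 also differed between the drugs, and 1338 were DEGs of 5FU alone, of which 998 differed. Neither drug made a DEG of 1370 genes. Among the 939 genes with effects of at least 1 log2 unit under both drugs, 176 rose under both, 588 fell under both, 159 rose under Dox and fell under 5FU, and 16 fell under Dox and rose under 5FU. Across genes, which are not independent replicates, the effects correlated with r = 0.24 (Spearman's rho = 0.23), and with r = 0.31 over the 10804 genes with a mean count of at least 100. The 2 effects share no library. The correlation for each single treated library ran from 0.22 to 0.25 over the 13 libraries.

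**Figure D2:**
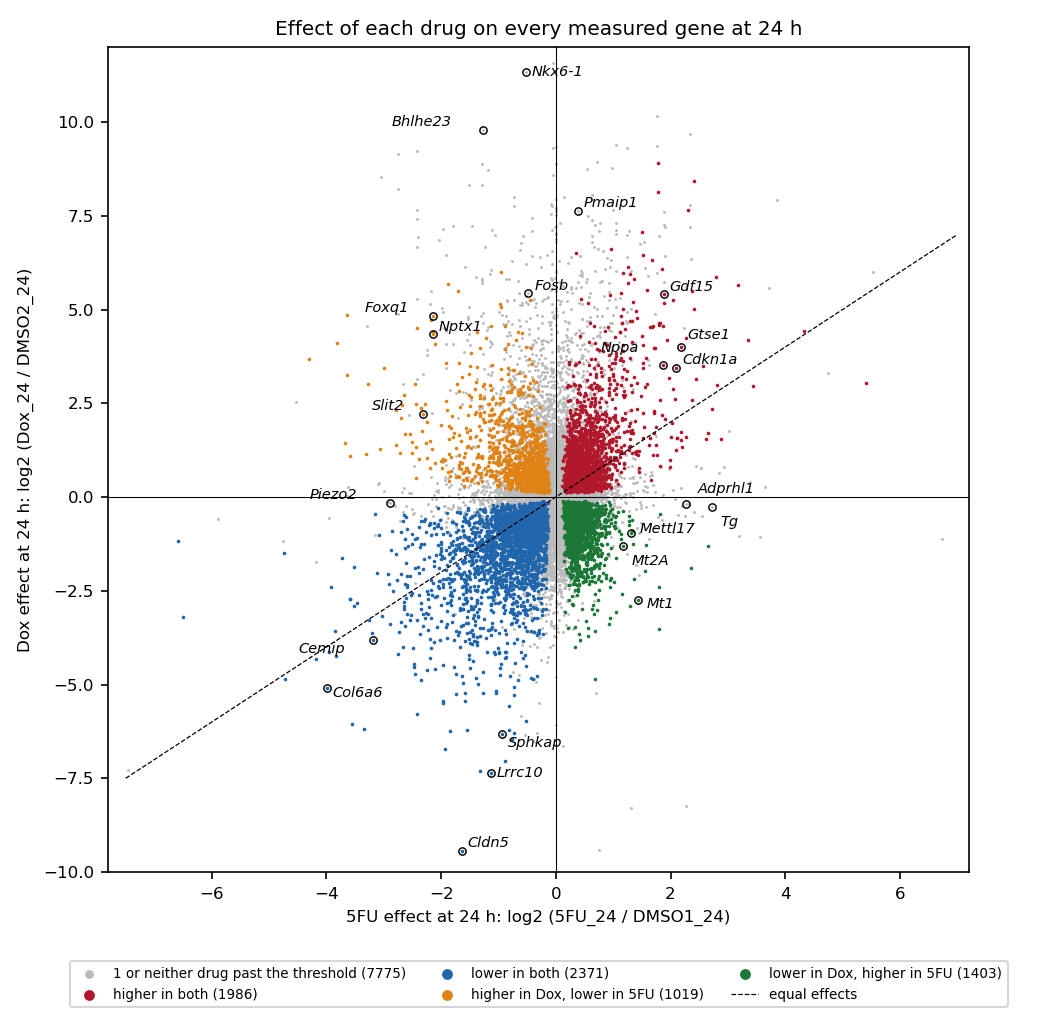
The 5FU effect (DMSO1_24 as control) and the Dox effect (DMSO2_24 as control) of each gene, both in log2 units, with genes coloured by the drugs for which they were DEGs and by direction. The cloud is wider along the Dox axis (SD 1.64) than along the 5FU axis (SD 0.71), and all 4 quadrants are filled.

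The gene groups below are lists written by hand, and each is given by its counts, mostly with a median, without a test of the list. They are to be read against all genes, of which 40.4% rose and 41% fell under Dox and 28% and 27.8% under 5FU. The difference was positive for 35.8% and negative for 35.4%. Of all genes 13.6% rose and 16.3% fell under both drugs, 7% rose under Dox and fell under 5FU, and 9.64% did the reverse. Over all genes the median Dox effect was 0.00, the median 5FU effect -0.01 and the median difference 0.03. TMM scaling draws such medians toward 0, so rises and falls are relative to the other genes and not amounts per cell. The plot of list medians shows the main contrasts: p53 targets rose under both drugs, sarcomere and ion channel genes fell more often under Dox, collagens and matrix genes fell more often under 5FU, and proteasome genes fell under Dox and rose under 5FU more often than the reverse.

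**Figure D3:**
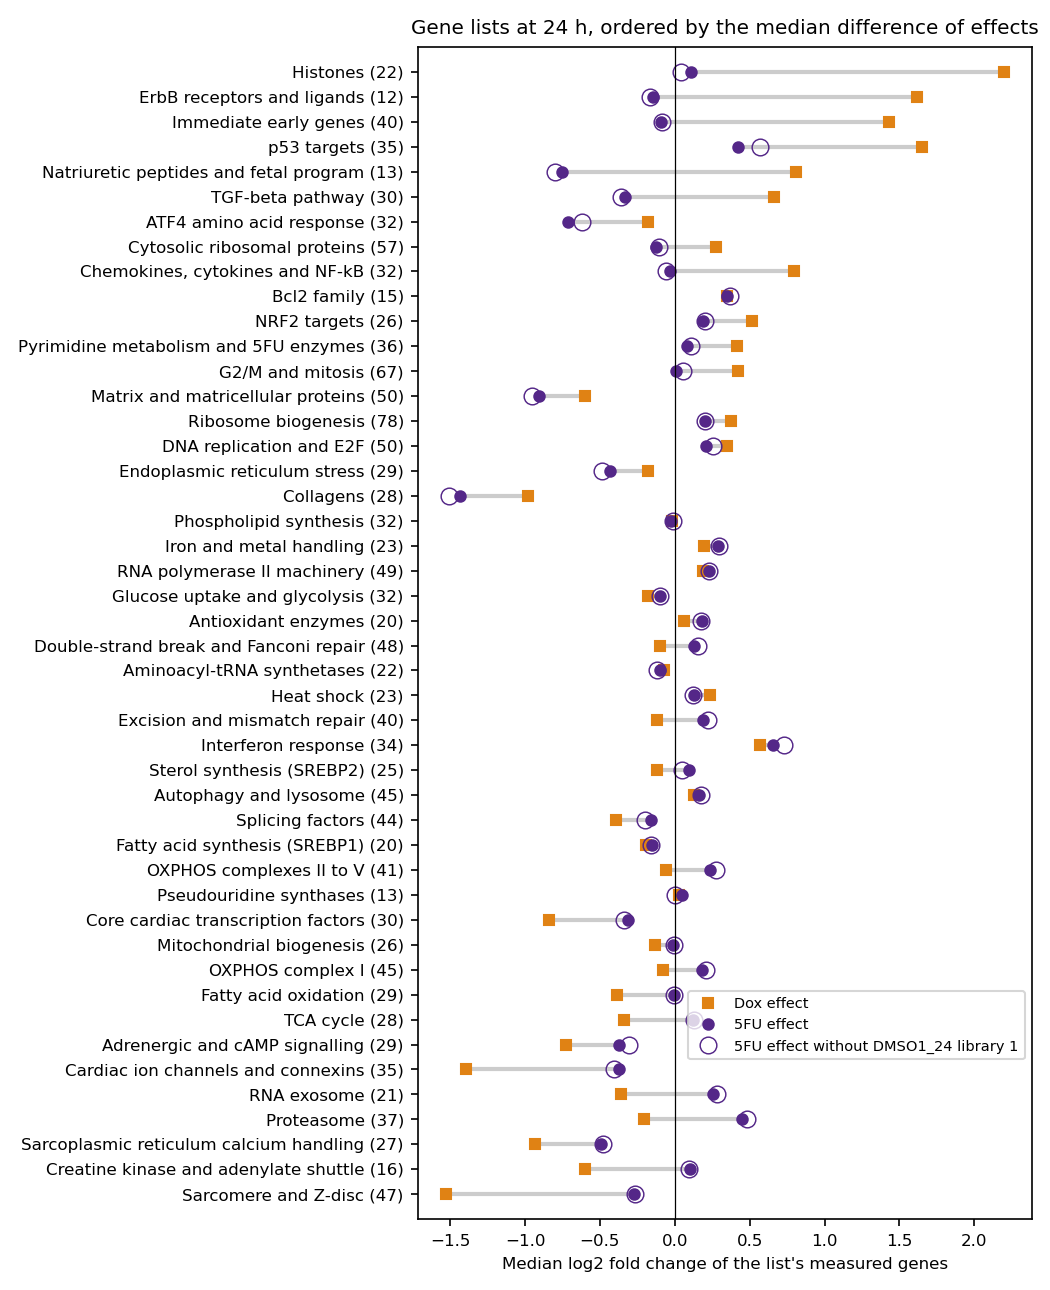
Median log2 effect of each of 46 gene lists with at least 12 measured genes, for the Dox effect, the 5FU effect and the 5FU effect without library 1 of DMSO1_24. The lists are ordered by their median difference of effects. Histones and p53 targets have the most positive Dox medians (2.20 and 1.65), collagens the most negative 5FU median (-1.44), and the proteasome is negative for Dox (-0.20) and positive for 5FU (0.45).

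Targets of p53 rose under both drugs more often than they fell. Of the 35 measured, 30 rose and 3 fell under Dox (median 1.65), 24 rose and 3 fell under 5FU (median 0.42), and 22 rose under both, where 40.4% of all genes rose under Dox and 28% under 5FU. The responses were unequal in size, since 27 had a positive difference of effects and 3 a negative one (median 1.34). Library 1 of DMSO1_24 moved this list: without it the median difference was 0.94, with 6 negative genes, and 27 genes rose under 5FU. Cdkn1a, which encodes the cell cycle inhibitor p21, had 95.8 to 699 (median 111) CPM in DMSO1_24 and 841 to 913 (median 889) in 5FU_24, and the highest control is that library. For the other arm it had 93.4 to 116 (median 104) CPM in DMSO2_24 and 908 to 1407 (median 1080.2) in Dox_24. The treated groups lay above their controls, and Cdkn1a rose by 3.44 ± 0.23 (FDR = 3.21e-21) under Dox and 2.1 ± 0.24 (FDR = 1.57e-11) under 5FU, a difference of 1.34 ± 0.32 (FDR = 1.32e-04). Without that control library the 5FU effect was 3.04 and the difference 0.40 (FDR = 0.00347), and no difference was called when Dox_24 was set directly against 5FU_24 (0.36). Mdm2, the ubiquitin ligase that degrades p53, rose by 2.81 ± 0.15 and 1.34 ± 0.16, and Bax, an effector of mitochondrial death, by 1.65 ± 0.11 and 0.82 ± 0.12. Their 5FU effects include library 1 of DMSO1_24, which stood at 191 CPM for Mdm2 (other controls 51.6 to 59.7) and 128 for Bax (47.3 to 59.5). Gdf15, a secreted stress signal, had a larger difference than these, with 6.27 to 8.24 (median 6.92) CPM in DMSO2_24 and 169 to 447 (median 339) in Dox_24 but 6.14 to 58.5 (median 7.44) CPM in DMSO1_24 and 52.3 to 63.5 (median 58.8) in 5FU_24. Its difference of effects was 3.52 ± 0.41 (FDR = 1.40e-11), and 2.35 without library 1.

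Some p53 targets did not follow the common pattern. Pmaip1, which encodes the death-promoting protein Noxa, had 1.83 to 6.33 (median 2.93) CPM in DMSO1_24, 4.07 to 4.88 (median 4.52) in 5FU_24, 2.43 to 3.8 (median 3.03) in DMSO2_24 and 426 to 985 (median 496) in Dox_24. The Dox_24 libraries lay far above every other library, and the difference of effects was 7.24 ± 0.32 (FDR = 3.64e-30). The 5FU_24 libraries lay above the range of 5 DMSO1_24 libraries (1.83 to 3.8 CPM) and below library 1 (6.33), and the 5FU effect was 0.39 ± 0.23 (FDR = 0.142), or 0.67 without library 1 (FDR = 0.0132). Ckap2, a spindle protein gene, was also favoured by Dox (4.71 ± 0.19 against 1.3 ± 0.19). For Ckap2, library 1 of DMSO1_24 stood at 77.9 CPM and the other controls at 18.2 to 23.3. Triap1, which encodes a small inhibitor of apoptosis, had 26.2 to 41.9 (median 29.9) CPM in DMSO1_24, 62.4 to 68.9 (median 65) in 5FU_24, 25.1 to 29.3 (median 27.2) in DMSO2_24 and 26.4 to 29.8 (median 27.2) in Dox_24. Here only the 5FU_24 libraries separated from their control, and the difference was -1.02 ± 0.09 (FDR = 1.24e-15). Sesn1 and Perp, a stress sensor of mTORC1 signalling and a junction protein, fell under Dox (-1.11 ± 0.09 and -0.86 ± 0.05), and Sesn1 rose under 5FU (0.36 ± 0.09). Ccng1, Phlda3 and Rps27l rose under both with no difference called over all libraries (-0.14, -0.21 and -0.10). Without library 1 of DMSO1_24 their differences were called and negative, at -0.44, -0.61 and -0.47. In the Bcl2 family of cell death regulators (15 measured; 7 positive and 3 negative differences), the members split. Dox raised Bid by 2.58 ± 0.08 and the protective Bcl2l1 by 1.87 ± 0.09, each more than 5FU did. The effector genes Bak1 and Bok fell under Dox (-0.72 ± 0.05 and -0.23 ± 0.08) and rose under 5FU (0.26 ± 0.06 and 0.81 ± 0.09). The Dox call of Bok was lost in 22 of 34 alternative settings.

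Immediate early genes, which code for transcription factors and feedback regulators switched on within minutes of a stimulus, separated the drugs more uniformly than any other of the 46 lists with at least 12 measured genes. Of 40 measured, 35 rose and 1 fell under Dox (median 1.43), whereas under 5FU 12 rose and 12 fell (median -0.10). The difference of effects was positive for 35 and negative for none. Fosb, a partner of Jun in AP-1, had 0.471 to 1.63 (median 1.34) CPM in DMSO1_24, 0.538 to 1.23 (median 0.847) in 5FU_24, 0.881 to 1.45 (median 1.14) in DMSO2_24 and 18 to 89.4 (median 47.9) in Dox_24. The Dox_24 libraries were all above DMSO2_24 but spread among themselves, and 5FU_24 overlapped DMSO1_24. The difference was 5.91 ± 0.51 (FDR = 2.26e-16). Dusp4, a phosphatase that switches off MAP kinases, moved in opposite directions, with 13.9 to 18.3 (median 15.5) CPM in DMSO1_24, 5.1 to 6.26 (median 5.59) in 5FU_24, 16.5 to 19.9 (median 17.9) in DMSO2_24 and 105 to 131 (median 110.2) in Dox_24. Neither drug group overlapped its control, and the difference reached 4.16 ± 0.12 (FDR = 6.36e-40). Rnd3, a small GTPase, moved likewise (2.08 ± 0.07 and -0.98 ± 0.08), as did Ccn1, a matricellular protein (1.16 ± 0.14 and -1.35 ± 0.16). Fos and Egr1 rose under both but more under Dox, with differences of 3.26 ± 0.22 and 1.06 ± 0.18. Myc fell under 5FU (-1.87 ± 0.17) and was not a DEG of Dox (0.26 ± 0.13), and Ccn2 followed the same course (-1.71 ± 0.24 and 0.08 ± 0.19). Klf2 had effects of 0.00 ± 0.13 under Dox and 0.40 ± 0.14 under 5FU, and the 5FU call was lost in 14 of 34 alternative settings, among them without library 1 of DMSO1_24.

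The promoters of these genes are shown because several carry the cAMP response element, the site of the CREB and ATF families. The letters TGACGTCA were searched on both strands in the 250 bases before the start of each gene (RefSeq, assembly GRCr8) and were found in 5 of 28 promoters of the immediate early list (17.9%) against 2.71% of the 11403 promoters of measured genes. The AP-1 site TGACTCA was in 0 of 28, against 3.15% of all. Maff, a small Maf factor (3.48 ± 0.16 under Dox and 0.15 ± 0.19 under 5FU), Btg2, an antiproliferative gene (3.67 ± 0.12 and 0.69 ± 0.12), and Dusp1, another MAP kinase phosphatase (1.19 ± 0.12 and -0.51 ± 0.14), hold it, shown in capitals in the 60 bases around it. They lie at chr7:112792710-112792769 on the plus strand, chr13:48087858-48087917 on the minus strand and chr10:17184703-17184762 on the plus strand. A match is a string of letters and not a measured binding site.
Maff: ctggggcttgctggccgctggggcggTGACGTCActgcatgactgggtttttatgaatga
Btg2: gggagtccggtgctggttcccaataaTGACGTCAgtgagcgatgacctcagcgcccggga
Dusp1: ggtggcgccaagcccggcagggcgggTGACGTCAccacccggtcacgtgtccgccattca

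The signalling lists split: TGF-beta and ErbB genes leaned toward positive differences, and adrenergic and cAMP genes toward negative ones. Of 29 adrenergic and cAMP genes, 6 had positive and 16 negative differences (median -0.52, or -0.63 without 1 gene near the floor). Of 30 genes of the TGF-beta and BMP pathway, which controls growth arrest and scar formation, 20 rose under Dox and 1 under 5FU, 7 and 16 fell, and 11 rose under Dox while falling under 5FU (median difference 1.05). Among the ligands, Tgfb2 rose under Dox (2.1 ± 0.18) and fell under 5FU (-0.60 ± 0.20, a call lost in 18 of 34 alternative settings), and Bmp2 moved in the same opposed way (1.94 ± 0.12 and -1.02 ± 0.16), as did Inhba, an activin subunit (1.21 ± 0.10 and -0.91 ± 0.13). The receptors Tgfbr2 and Tgfbr3 fell under both, more under Dox (differences of -0.96 ± 0.09 and -1.72 ± 0.13). Among the targets and inhibitors, Smad7, which blocks the receptors, had 11.6 to 18.7 (median 16.9) CPM in DMSO1_24, 9.4 to 13.4 (median 11.7) in 5FU_24, 15.4 to 20.6 (median 17.4) in DMSO2_24 and 61.5 to 72.9 (median 68.1) in Dox_24. Dox_24 lay wholly above its control, and 5FU_24 lay below 5 DMSO1_24 libraries (16 to 18.7 CPM) and overlapped library 1 (11.6), with an effect of -0.49 ± 0.10. The difference for Smad7 was 2.44 ± 0.13 (FDR = 2.19e-25). Id1 and Id2, inhibitors of differentiation downstream of BMP signals, rose under Dox by 3.98 ± 0.11 and 3.04 ± 0.08, while 5FU gave 0.07 ± 0.13 and -0.46 ± 0.10.

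In the ErbB family, whose neuregulin signal protects heart muscle, 8 of 12 genes had positive and 3 negative differences (median 1.94). Without Nrg2, which is near the floor in the other 3 groups and is among the genes counted, the median was 1.73. The ligand Hbegf had 6.05 to 8.77 (median 7.67) CPM in DMSO2_24 and 64 to 95.2 (median 84.5) in Dox_24 against 7.33 to 9.94 (median 9.04) CPM in DMSO1_24 and 9.49 to 10.8 (median 10.4) in 5FU_24. It rose under Dox (3.41 ± 0.11) and was not called under 5FU (0.22 ± 0.13), and Nrg1, the neuregulin itself, rose under Dox (1.55 ± 0.13) and fell under 5FU (-0.61 ± 0.16). The receptor Erbb4, which binds neuregulin in cardiomyocytes, had 19.95 to 23.6 (median 20.6) CPM in DMSO1_24, 9.95 to 16.4 (median 13.7) in 5FU_24, 19.6 to 25.5 (median 24.6) in DMSO2_24 and 1.81 to 2.68 (median 2.15) in Dox_24. Both drugs lowered it without overlap, and Dox lowered it more, with a difference of -2.8 ± 0.16 (FDR = 3.33e-24). Its partner Erbb2 fell under Dox (-0.62 ± 0.08) and stood at -0.01 ± 0.09 under 5FU, whereas Erbb3 rose under Dox (3.59 ± 0.17) and was not called under 5FU (0.34 ± 0.21). Nrg2 was at or below 4 counts in every library of the other 3 groups and reached 82 counts in Dox_24.

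Histone genes rose under Dox more often than they fell. Of 22 measured, 18 rose and 1 fell under Dox (median 2.2), and 6 rose and 3 fell under 5FU (median 0.11). The difference was positive for 17 and negative for 1 (median 2.55, or 1.54 without 4 genes near the floor). Those 4 had 6 counts or fewer in DMSO1_24, 5FU_24 and DMSO2_24, so of the groups compared only Dox_24 took them past the filter. They are among the genes counted. Many of the gene models are near-identical copies whose reads could be shared, and the messages of replication histones normally lack the polyA tail on which this library preparation selects. Hist1h2ai, a core histone gene, had 3.51 to 4.87 (median 4.54) CPM in DMSO1_24, 2.63 to 4.2 (median 2.9) in 5FU_24, 3.03 to 3.83 (median 3.59) in DMSO2_24 and 129 to 147 (median 136) in Dox_24. Dox_24 was set apart from all other libraries, and the difference was 5.71 ± 0.15 (FDR = 6.32e-41). Histone variants moved less than Hist1h2ai: H2ax, the variant marked at DNA breaks, rose by 1.16 ± 0.08 under Dox and 0.28 ± 0.08 under 5FU, H2az1 rose under both with no difference called (0.67 ± 0.06 and 0.79 ± 0.06), and H2az2 fell under Dox (-0.93 ± 0.05).

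Cell cycle genes did not move as a block. Of 67 G2/M and mitosis genes, 36 rose and 16 fell under Dox, 18 rose and 9 fell under 5FU, and the difference was positive for 29 and negative for 14 (median 0.33). For 50 DNA replication and E2F genes the counts were 21 and 12 (median 0.29). The transcription factor E2f1 rose under Dox only by the call (3.59 ± 0.11 against 0.13 ± 0.13), and the difference was 3.46 ± 0.17 (FDR = 2.72e-27). The licensing factor Cdt1 (2.06 ± 0.11 and -0.08 ± 0.13) and the repair gene Brca1 (1.99 ± 0.10 and -0.30 ± 0.12) did the same. The mitotic kinase Cdk1 went the other way, with 15.3 to 19.7 (median 18.1) CPM in DMSO1_24, 15.3 to 21.7 (median 17.9) in 5FU_24, 13.6 to 17.8 (median 16) in DMSO2_24 and 3.96 to 6.69 (median 4.87) in Dox_24. Dox_24 lay below every other library, and the difference was -1.77 ± 0.14 (FDR = 3.59e-18). Top2a, the topoisomerase II of dividing cells and a target of Dox, fell under Dox (-1.15 ± 0.10) and was not called under 5FU (0.15 ± 0.10). The cell cycle homology region TTTGAA, through which the DREAM complex silences mitotic genes, was in 25 of 57 promoters of the G2/M list (43.9%, against 10.3% of all) and in promoters of genes that moved in opposite directions. Prc1, a spindle midzone protein, rose under Dox (2.28 ± 0.10), as did the securin gene Pttg1 (1.41 ± 0.14), which fell under 5FU (-0.75 ± 0.16), whereas Cdk1 fell. Their windows are at chr10:28406327-28406386 on the minus strand, chr1:143659421-143659480 on the plus strand and chr20:19265233-19265292 on the plus strand, with TTTGAA or its reverse complement in capitals.
Pttg1: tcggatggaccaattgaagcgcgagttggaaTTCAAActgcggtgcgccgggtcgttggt
Prc1: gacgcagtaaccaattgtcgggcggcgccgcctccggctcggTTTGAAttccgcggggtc
Cdk1: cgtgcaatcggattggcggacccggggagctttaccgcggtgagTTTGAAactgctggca

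The amino acid response driven by ATF4 fell more often under 5FU than under Dox. Of 32 measured genes, 22 fell and 4 rose under 5FU (median -0.72), 14 fell and 11 rose under Dox (median -0.18), and 12 fell under both. The difference was positive for 19 and negative for 4 (median 0.67). Pycr1, of proline synthesis, had 6.23 to 19.2 (median 15.4) CPM in DMSO1_24, 2.84 to 3.68 (median 3.54) in 5FU_24, 15.1 to 21.3 (median 16.8) in DMSO2_24 and 12.5 to 20.8 (median 18.6) in Dox_24. All 5FU_24 libraries lay below DMSO1_24, Dox_24 overlapped DMSO2_24, and the difference was 2.16 ± 0.18 (FDR = 3.82e-17). The cystine transporter Slc7a11 (-1.6 ± 0.12 under 5FU, 0.29 ± 0.10 under Dox) and asparagine synthetase Asns (-0.49 ± 0.10 and 0.51 ± 0.09) fell under 5FU and rose under Dox. Ddit3, the death-linked factor CHOP, did so too (-0.29 ± 0.07 and 1.77 ± 0.07). Atf4 itself fell under both (-0.94 ± 0.10 and -0.70 ± 0.09) with no difference called (0.24 ± 0.13), as did Aldh1l2, a mitochondrial folate enzyme (-2.35 ± 0.13 and -2.84 ± 0.13). Nupr1, a stress-induced chromatin protein, fell more under Dox (-2.67 ± 0.13 against -1.19 ± 0.13), and Chac1, which degrades glutathione, fell more under 5FU (-0.77 ± 0.13 against -1.63 ± 0.16).

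The composite element of ATF4, TGATGNAA, was in 5 of 27 promoters of this list (18.5%, against 1.86% of all), and the windows of the 3 genes are shown because they hold it while their effects differ in order. They lie at chr10:106420910-106420969 on the minus strand, chr1:190645923-190645982 on the minus strand and chr3:126795938-126795997 on the plus strand, with the element in capitals.
Pycr1: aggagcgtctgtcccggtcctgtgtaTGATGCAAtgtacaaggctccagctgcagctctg
Nupr1: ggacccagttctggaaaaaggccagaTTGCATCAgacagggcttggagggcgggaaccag
Chac1: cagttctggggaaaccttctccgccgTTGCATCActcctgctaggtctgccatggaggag

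Genes of endoplasmic reticulum stress, which enlarge the folding capacity for secreted proteins, fell under both drugs more often than they rose. Of 29, 21 fell under 5FU and 15 under Dox, 13 under both, and 3 and 12 rose. The difference was positive for 15 and negative for 7 (median 0.28), and 6 rose under Dox while falling under 5FU. Under Dox 51.7% fell and 41.4% rose, where 41% and 40.4% of all genes did. The main chaperone Hspa5 (BiP) had 610.01 to 886 (median 865) CPM in DMSO1_24, 461 to 495 (median 482) in 5FU_24, 772 to 895 (median 834) in DMSO2_24 and 317 to 370.4 (median 337) in Dox_24. Both groups lay below their controls, with effects of -0.78 ± 0.07 under 5FU and -1.3 ± 0.07 under Dox and a difference of -0.52 ± 0.10 (FDR = 5.85e-06). Sdf2l1, a chaperone cofactor, fell under 5FU (-1.48 ± 0.14) and rose under Dox (0.42 ± 0.11).

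Sarcomere genes fell more often under Dox than under 5FU. Of 47 measured genes of the contractile apparatus and Z-disc, 40 fell and 5 rose under Dox (median -1.53), 21 fell and 4 rose under 5FU (median -0.27), 21 fell under both, and the difference was negative for 34 and positive for 3. In bulk RNA, fewer cells of a type and less RNA of these genes per cell cannot be told apart. The summed level of the 9 cardiomyocyte markers was 32820 to 44428 CPM (median 40309) in DMSO2_24 and 8499 to 10469 (median 9154) in Dox_24, and 28409 to 36588 (median 32771) in DMSO1_24 and 19618 to 22128 (median 20511) in 5FU_24. All 9 fell under Dox, and 6 fell and 1 rose under 5FU. The markers of other cells moved too: of the 10 fibroblast markers all fell under both drugs, and of the 9 endothelial markers 7 fell under Dox and 6 under 5FU. The part of cell numbers in the results was not tested.

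The members of the sarcomere list differed widely under Dox. Myh6, the fast cardiac myosin heavy chain, had 10240.0 to 16906 (median 13650.0) CPM in DMSO1_24, 6613 to 9229 (median 6885) in 5FU_24, 14327 to 21397 (median 17852) in DMSO2_24 and 896 to 1093 (median 1028) in Dox_24. Both drug groups lay below their controls, and the difference of effects was -3.26 ± 0.15 (FDR = 7.49e-29). Tnni3, the adult troponin I, had 1584 to 2162 (median 1770.5) CPM in DMSO1_24, 2144 to 2265 (median 2200.0) in 5FU_24, 1483 to 2049 (median 1773) in DMSO2_24 and 211 to 285 (median 254) in Dox_24. It fell under Dox (-2.87 ± 0.08) and rose slightly under 5FU (0.30 ± 0.08), where library 1 (2162 CPM) overlapped 5FU_24 and the other DMSO1_24 libraries (1584 to 1802) lay below it. Tnnt2, troponin T, had 6541 to 7668 (median 7188) CPM in DMSO1_24, 6055 to 6772 (median 6407) in 5FU_24, 6279 to 7408 (median 6776) in DMSO2_24 and 5313 to 6889 (median 5759) in Dox_24. It barely moved, at -0.21 ± 0.06 under Dox and -0.16 ± 0.06 under 5FU, with no difference called (-0.05 ± 0.08, 95% interval -0.22 to 0.11). The light chains Myl2 and Myl3 were not DEGs of either drug (0.03 ± 0.07 and -0.21 ± 0.08 for Myl2, 0.13 ± 0.06 and -0.10 ± 0.07 for Myl3). The myosin chaperone Unc45b fell under Dox (-3.06 ± 0.05) and rose slightly under 5FU (0.16 ± 0.04), and the methyltransferase Smyd1, which helps assemble sarcomeres, fell under Dox only by the call (-3.05 ± 0.09 and 0.15 ± 0.08). Ldb3, which anchors the Z-disc, was similar (-3.42 ± 0.09 and 0.17 ± 0.09), and Tcap, the titin cap, fell under Dox and rose under 5FU (-1.66 ± 0.20 and 0.86 ± 0.19). The small heat shock protein gene Cryab rose under both, more under Dox (1.72 ± 0.11 and 0.43 ± 0.11).

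Promoters of this list were searched for the palindromic core of the MEF2 site on both strands, and 5 of 37 held it (13.5%, against 2.76% of all). Mef2c, a muscle transcription factor, fell under Dox (-2.5 ± 0.07) and stood at -0.01 ± 0.07 under 5FU. Mybpc3, myosin-binding protein C (-1.8 ± 0.09 under Dox, -0.22 ± 0.10 under 5FU), and Xirp2, an actin-binding repeat protein of the intercalated disc (-1.18 ± 0.30 and 0.37 ± 0.31), are shown as members that hold the site and were DEGs of Dox alone. Their windows are at chr3:97550927-97550986 on the plus strand and chr3:72534087-72534146 on the plus strand, with the site in capitals.
Mybpc3: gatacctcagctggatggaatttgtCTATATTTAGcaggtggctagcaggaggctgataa
Xirp2: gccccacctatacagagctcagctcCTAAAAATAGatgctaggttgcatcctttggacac

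Genes of excitation and calcium followed the sarcomere in part. Of 35 ion channel and connexin genes, 26 fell under Dox and 17 under 5FU (medians -1.4 and -0.38), and the difference was negative for 18 and positive for 5. Of 27 calcium-handling genes, 18 fell under Dox and 17 under 5FU, with 16 negative and 8 positive differences. Atp2a2, the calcium pump SERCA2, had 3545 to 5153 (median 4608) CPM in DMSO1_24, 1585 to 1952 (median 1787) in 5FU_24, 5023 to 5927 (median 5252) in DMSO2_24 and 434 to 509 (median 488) in Dox_24. Ryr2, the calcium release channel, and Pln, the brake on the pump, fell with it under Dox (-3.78 ± 0.12 and -3.1 ± 0.08) and less under 5FU (-1.51 ± 0.12 and -0.90 ± 0.08). The difference for Atp2a2 was -2.17 ± 0.10 (FDR = 1.43e-28). Slc8a1, the sodium-calcium exchanger, and Hrc, a calcium-binding protein of the store, fell mainly under Dox, at -3.61 ± 0.07 and -3.63 ± 0.10 against -0.38 ± 0.07 and -0.17 ± 0.09. The connexins Gja1 and Gja5 fell under both (-2.99 ± 0.08 and -5.49 ± 0.16 under Dox, -1.34 ± 0.08 and -1.96 ± 0.13 under 5FU). Of the list, 17 genes fell under both and 7 fell under Dox and rose under 5FU. Among the latter were potassium channel genes: Kcnh2 fell under Dox (-1.4 ± 0.08) and rose under 5FU (0.37 ± 0.09), and so did Kcnj5 (-2.1 ± 0.09 and 0.42 ± 0.09) and Kcnk3 (-2.0 ± 0.12 and 0.53 ± 0.12).

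Among 30 core cardiac transcription factors, 20 fell under Dox and 15 under 5FU. Nkx2-5 had 241 to 273 (median 263) CPM in DMSO2_24 and 38.3 to 42.6 (median 41.6) in Dox_24 and 249.9 to 273 (median 263) CPM in DMSO1_24 and 219 to 256 (median 249) in 5FU_24. It was lower in all Dox_24 libraries, with a difference of -2.55 ± 0.10 (FDR = 9.30e-32). The 5FU_24 libraries lay below 5 DMSO1_24 libraries (259 to 273 CPM) and overlapped library 1 (249.9), and the 5FU effect of -0.11 ± 0.07 was not called. Gata6 followed it (-1.92 ± 0.07 and -0.01 ± 0.07), while Gata4 moved little (-0.38 ± 0.07 and -0.15 ± 0.08, no difference called). Tbx5 and Gata5 fell under Dox (-0.69 ± 0.09 and -2.36 ± 0.08) and rose under 5FU (0.97 ± 0.09 and 0.37 ± 0.08). Tbx3 and Hand1, factors of the conduction system and of early heart growth, rose under Dox (2.88 ± 0.11 and 2.43 ± 0.12). Of the receptors that set the beat, Chrm2, the muscarinic receptor, fell under both, more under Dox (-4.78 ± 0.11 and -0.80 ± 0.09). The adrenergic receptor Adrb1 fell under Dox (-2.12 ± 0.14) and was at -0.38 ± 0.14 under 5FU, called without library 1 of DMSO1_24 (-0.42, FDR = 0.00707).

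The natriuretic peptide gene Nppa, a marker of cardiac load, rose under both drugs, with 1137 to 2600.4 (median 1312) CPM in DMSO1_24, 4877 to 6993 (median 5789) in 5FU_24, 764 to 1494 (median 1017) in DMSO2_24 and 10914 to 13688 (median 12215) in Dox_24. The treated groups lay above their controls without overlap, and Dox raised it more, with a difference of 1.65 ± 0.23 (FDR = 3.59e-09). Nppb, the partner peptide, rose under Dox by the call (1.09 ± 0.33) with a wide spread and was at -0.01 ± 0.36 under 5FU. In Dox_24 it had 14.2 CPM in library 7 and 39.9 to 55 in the other libraries. Nppc, the C-type peptide, was at 4 counts or fewer in every library of DMSO1_24, 5FU_24 and DMSO2_24. In Dox_24 it was at least 49.1-fold higher than the floor of 3 counts per library, and it is among the 13 genes counted below. Of the receptors, Npr1 rose under Dox (1.39 ± 0.08) and fell under 5FU (-0.73 ± 0.09), and Npr3, which clears the peptides, fell under 5FU (-3.16 ± 0.22) and less under Dox (-0.45 ± 0.16), a Dox call lost in 23 of 34 alternative settings. Of the 13 natriuretic and fetal genes, 7 rose and 5 fell under Dox, 1 rose and 7 fell under 5FU, and 4 fell under both. Among these were Ankrd1, lower under Dox than under 5FU (difference -1.98 ± 0.31), and Myh7, the slow myosin, with no difference called (-1.12 ± 0.22 and -1.18 ± 0.24).

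The plot of levels in each library shows 16 genes that stand for the shared and the opposed responses.

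**Figure D4:**
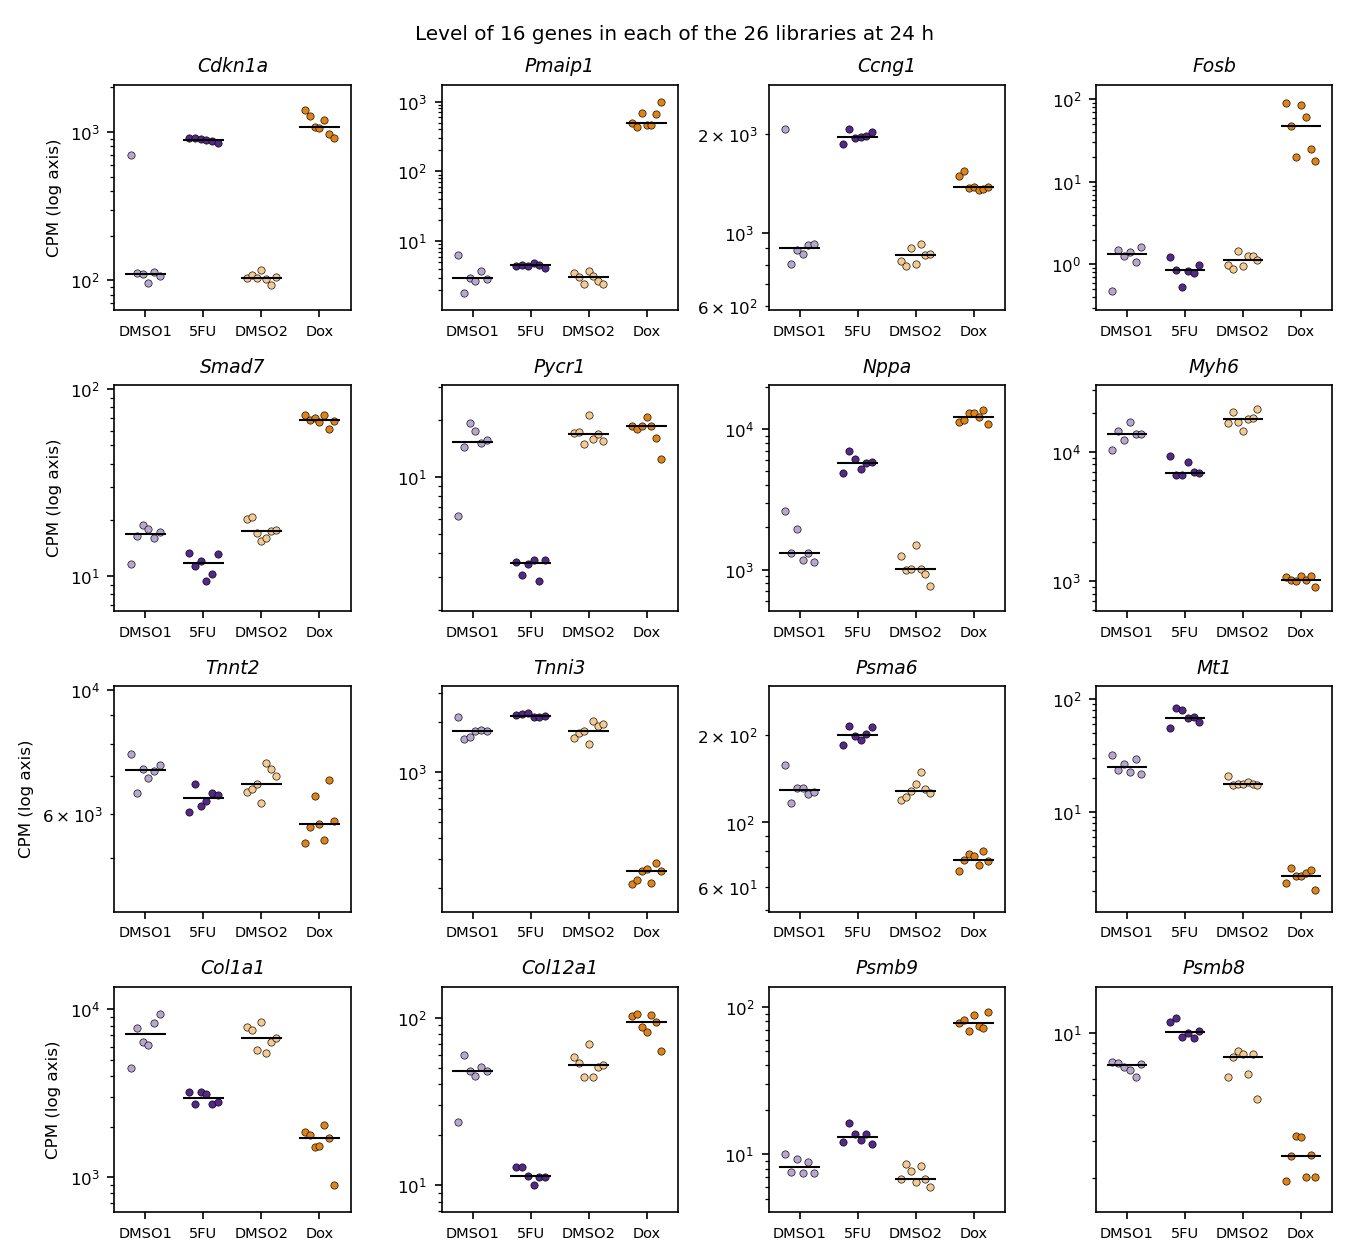
CPM on a log axis in each library of DMSO1_24, 5FU_24, DMSO2_24 and Dox_24 for 16 genes; each point is a library and each bar the group median. Cdkn1a and Nppa are higher in both drug groups than in their controls, Pmaip1 and Fosb are higher in Dox_24 than in all other libraries, Pycr1 is lower in 5FU_24 alone, and Mt1, Psma6 and Psmb8 are higher in 5FU_24 and lower in Dox_24.

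The proteasome held the largest share of genes that fell under Dox and rose under 5FU among the 46 lists. Of 37 measured subunits and regulators of this protease, 34 rose and 1 fell under 5FU (median 0.45), 20 fell and 10 rose under Dox (median -0.20), and 18 did both. The difference was negative for 29 and positive for 3. Psma6, an alpha ring subunit of the core, had 117 to 157 (median 129) CPM in DMSO1_24, 184 to 214 (median 199.96) in 5FU_24, 119.9 to 149 (median 128) in DMSO2_24 and 67.9 to 79.6 (median 74.5) in Dox_24. 5FU_24 lay above and Dox_24 below its control, without overlap, and the difference was -1.42 ± 0.10 (FDR = 4.94e-21). Psmd11, of the regulatory lid, gave -1.28 ± 0.04 under Dox and 0.27 ± 0.04 under 5FU, and the catalytic subunit Psmb6 -0.51 ± 0.08 and 0.76 ± 0.09. The regulatory subunit Psmd8 rose under both (0.75 ± 0.06 and 0.71 ± 0.06) with no difference called (0.05 ± 0.08, 95% interval -0.12 to 0.21). Nfe2l1, the transcription factor of the proteasome bounce-back response, rose under both and most under Dox (2.28 ± 0.05 against 0.45 ± 0.05). Psme4, an activator cap, rose under Dox and fell under 5FU (0.80 ± 0.06 and -0.20 ± 0.06).

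Nuclear genes of respiration rose under 5FU more often than they fell, and under Dox the reverse. Of 45 complex I genes, 21 rose and 2 fell under 5FU (median 0.18), 21 fell and 10 rose under Dox, and the difference was negative for 25 and positive for 3 (median -0.42). Of them 8 fell under Dox and rose under 5FU, and 6 rose under both. Of 41 genes of complexes II to V, 23 rose and 2 fell under 5FU, 14 rose and 19 fell under Dox, 13 rose under both and 7 fell under Dox and rose under 5FU. The difference was negative for 20 and positive for 1. Under Dox 46.7% of the complex I genes fell and 22.2% rose. For complexes II to V these shares were 46.3% and 34.1%, and over all genes 41% and 40.4%. Ndufb10, a membrane arm subunit, had 84.7 to 145 (median 118) CPM in DMSO1_24, 155 to 177 (median 166) in 5FU_24, 117 to 140.3 (median 125) in DMSO2_24 and 45.9 to 61 (median 55.2) in Dox_24. The groups were ordered as for Psma6, and the difference was -1.76 ± 0.11 (FDR = 2.34e-22). Ndufs8, an iron-sulfur subunit (-1.3 ± 0.08 under Dox, 0.26 ± 0.08 under 5FU), Sdhc of complex II (-0.79 ± 0.04 and 0.35 ± 0.05) and the heme enzyme Cox10 (-1.93 ± 0.06 and 0.27 ± 0.05) were alike. Acad9, an assembly factor, was the reverse (0.89 ± 0.04 and -0.25 ± 0.04), and the ATP synthase subunit Atp5f1b was not a DEG of either drug (difference -0.05 ± 0.06, 95% interval -0.18 to 0.08).

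**Figure D5:**
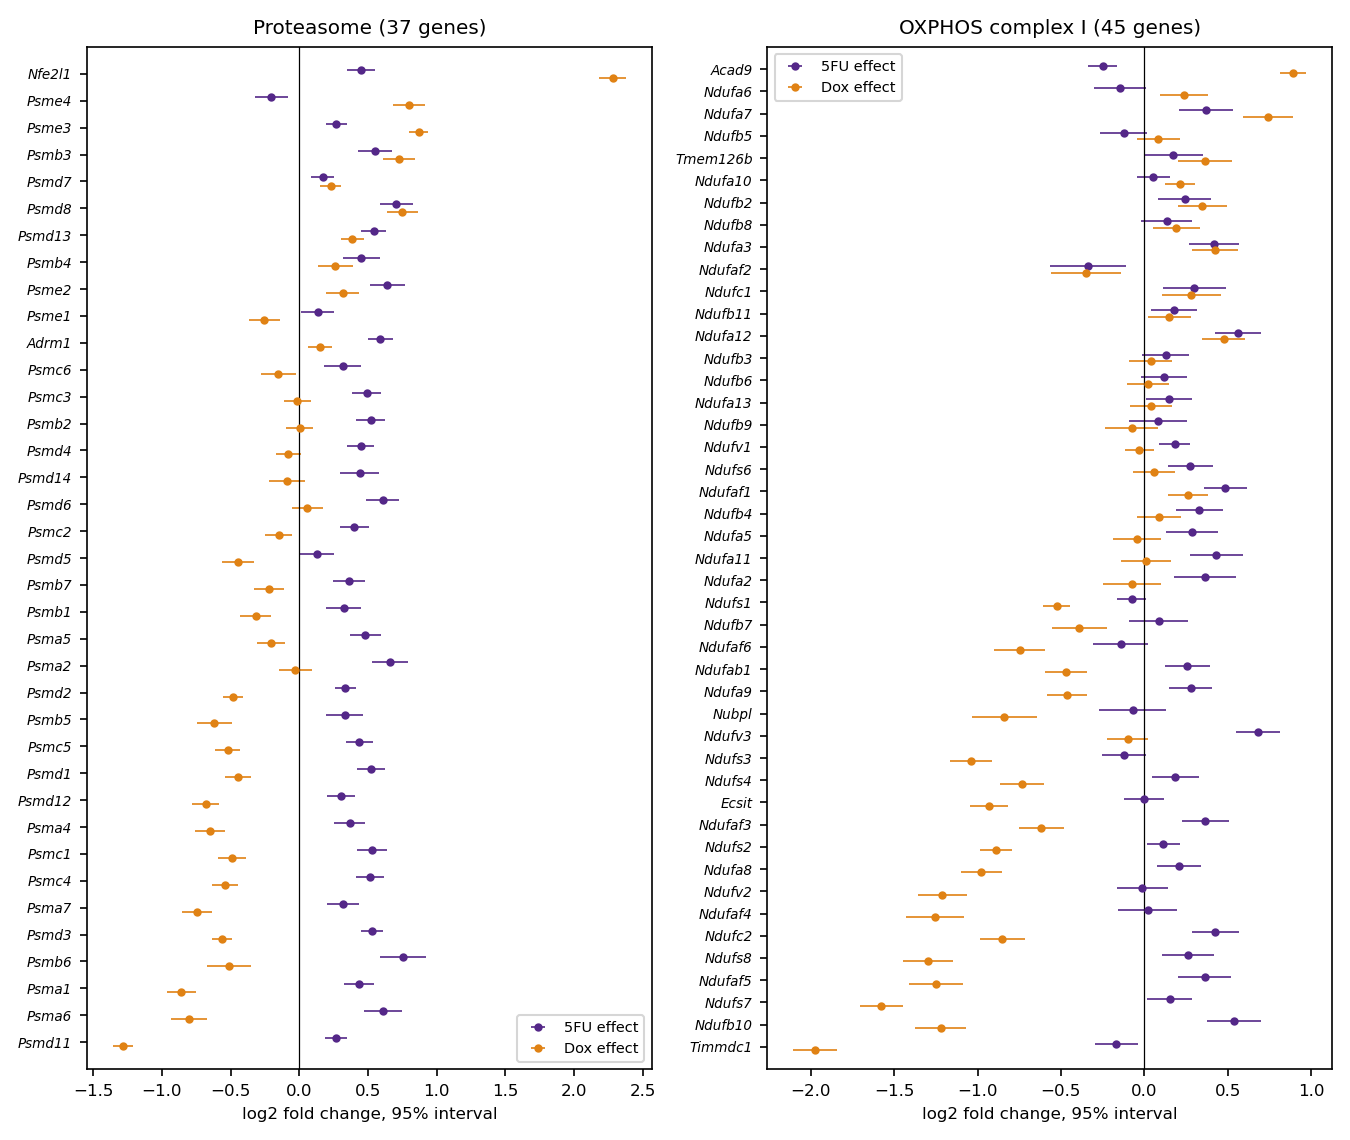
Log2 effects of Dox and of 5FU with 95% intervals for each measured proteasome gene and each complex I gene, ordered by the difference of effects. For most proteasome genes the 5FU effect lies above 0 and the Dox effect below it, with 34 of 37 called higher under 5FU and 20 called lower under Dox, and of 45 complex I genes 21 are called higher under 5FU and 21 lower under Dox.

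Genes of fuel enzymes had more negative than positive differences. In the TCA cycle list the difference was negative for 17 of 28 genes and positive for 6, and in fatty acid oxidation negative for 15 of 29 and positive for 2. In the creatine kinase and adenylate shuttle list it was negative for 11 of 16 and positive for 4. Genes that fell under Dox and rose under 5FU were 9 in the TCA cycle, 3 in fatty acid oxidation and 3 in the creatine kinase list. Dlat, a subunit of pyruvate dehydrogenase, had 201 to 239 (median 221) CPM in DMSO1_24, 288 to 311 (median 299.9) in 5FU_24, 204 to 224 (median 215) in DMSO2_24 and 52.6 to 85.1 (median 74.1) in Dox_24. The groups did not overlap in either arm, and the difference was -2.01 ± 0.08 (FDR = 4.12e-31). Idh3a, of isocitrate dehydrogenase, fell under Dox and rose under 5FU (-1.25 ± 0.05 and 0.41 ± 0.05), as did Cpt1a, a gate of fatty acid import (-1.52 ± 0.06 and 0.35 ± 0.06). Its muscle form Cpt1b fell under Dox (-2.28 ± 0.11) and was at -0.31 ± 0.11 under 5FU (FDR = 0.0122). The muscle creatine kinase Ckm fell under Dox (-2.31 ± 0.07) and less under 5FU (-0.25 ± 0.07), the latter not called without library 1 of DMSO1_24 or without library 2 of 5FU_24.

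The RNA exosome, a nuclease that degrades and trims nuclear RNA, had 13 negative and 4 positive differences among 21 genes, with 13 lower under Dox and 11 higher under 5FU. Exosc7, a ring subunit, had 8.91 to 13.6 (median 10.5) CPM in DMSO1_24, 14.8 to 17.7 (median 16.4) in 5FU_24, 8.55 to 11.5 (median 10.1) in DMSO2_24 and 3.13 to 3.74 (median 3.69) in Dox_24, and the difference was -2.13 ± 0.12 (FDR = 1.61e-24). Neither drug group overlapped its control. Subunits of RNA polymerase I, which makes ribosomal RNA, were opposed as well, Polr1a at -1.1 ± 0.08 and 0.45 ± 0.08 and Polr1c, shared with polymerase III, at -0.49 ± 0.07 and 1.28 ± 0.07. The wider list of ribosome biogenesis did not follow: of 78 genes, 51 rose under Dox and 38 under 5FU, and the difference was positive for 41 and negative for 23. Rrp9, of the small nucleolar RNA machinery, rose under Dox and fell under 5FU (2.78 ± 0.07 and -0.57 ± 0.09), and Nop16 rose more under Dox (2.98 ± 0.07 and 0.21 ± 0.07), its 5FU call being lost in 6 of 34 alternative settings, among them without library 1 of DMSO1_24.

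The metallothioneins Mt1 and Mt2A, which bind zinc and copper, were among the genes with the most opposed effects. Mt1 had 21.9 to 31.8 (median 25.3) CPM in DMSO1_24, 55.5 to 83.7 (median 68.9) in 5FU_24, 17.3 to 21.1 (median 17.6) in DMSO2_24 and 2.06 to 3.23 (median 2.71) in Dox_24. All 5FU_24 libraries were higher and all Dox_24 libraries lower than their controls, and the difference was -4.19 ± 0.22 (FDR = 4.56e-26). Mt2A gave -1.3 ± 0.14 under Dox and 1.17 ± 0.13 under 5FU. Others of this class were Mthfd2l, a mitochondrial folate enzyme (-1.63 ± 0.12 and 1.04 ± 0.11), Mettl17, which helps build the mitochondrial ribosome (-0.97 ± 0.09 and 1.32 ± 0.09), Armh4 (-2.27 ± 0.15 and 1.01 ± 0.13) and Hdhd5 (-0.98 ± 0.07 and 1.14 ± 0.07).

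Among the 46 lists, the collagens were the one that 5FU moved most uniformly. Of 28 measured collagen genes, 27 fell and none rose under 5FU (median -1.44). Under Dox 18 fell and 6 rose (median -0.98), 17 fell under both and 6 rose under Dox while falling under 5FU. For 50 other matrix genes, 40 fell and 1 rose under 5FU, and 28 fell and 12 rose under Dox. The summed level of the 10 fibroblast markers, several of them matrix genes themselves, had a median of 16298 CPM in DMSO1_24 and 5673 in 5FU_24, and of 16666 in DMSO2_24 and 3540 in Dox_24. Its part in the fall of the matrix genes was not tested.

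The major fibrillar collagens fell under both drugs. Col1a1 had 4452 to 9324 (median 7089) CPM in DMSO1_24, 2716 to 3227 (median 2975) in 5FU_24, 5483 to 8430.0 (median 6761) in DMSO2_24 and 899 to 2034 (median 1699) in Dox_24. Both treated groups lay below their controls, and Dox lowered it more, with a difference of -0.84 ± 0.23 (FDR = 6.73e-04). Col3a1 and Col1a2 were alike, with differences of -0.57 ± 0.15 and -0.93 ± 0.15. Postn, periostin, fell under both with no difference called (-2.98 ± 0.14 and -2.64 ± 0.15, difference -0.34 ± 0.19, 95% interval -0.72 to 0.04). The opposed collagens were others: Col12a1, which coats fibrils, had 23.9 to 59.8 (median 48.1) CPM in DMSO1_24, 10.1 to 12.9 (median 11.3) in 5FU_24, 44 to 69.2 (median 52) in DMSO2_24 and 63 to 104 (median 94.2) in Dox_24. 5FU_24 lay below its control and Dox_24 mostly above, the latter with overlap, and the difference was 2.75 ± 0.21 (FDR = 6.21e-19). Col24a1 was opposed too (1.73 ± 0.13 and -1.56 ± 0.18). Thbs1, an activator of latent TGF-beta, and Adamts1, a matrix protease, rose under Dox (0.78 ± 0.17 and 2.07 ± 0.11) and fell under 5FU (-1.57 ± 0.19 and -1.27 ± 0.14). Timp3, a protease inhibitor, did so as well (1.8 ± 0.09 and -0.36 ± 0.10), and Fn1, fibronectin, fell under 5FU (-1.91 ± 0.21) and was at 0.34 ± 0.19 under Dox.

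Collagen and other matrix genes were among those with the largest shared losses. Col6a6 had 15.6 to 63.4 (median 52.5) CPM in DMSO1_24, 1.86 to 3.66 (median 3.19) in 5FU_24, 50.3 to 72.2 (median 63.2) in DMSO2_24 and 1.23 to 2.47 (median 2.02) in Dox_24. The 2 drug groups overlapped each other and lay far below both controls. The difference was -1.1 ± 0.34 (FDR = 0.00283), and it was not called when Dox_24 was set directly against 5FU_24 (-0.76). Cemip, which takes part in hyaluronan turnover (-3.81 ± 0.18 under Dox and -3.18 ± 0.19 under 5FU), Cilp, a cartilage matrix protein (-3.18 ± 0.20 and -3.04 ± 0.22), and Frem1, of the basement membrane (-3.6 ± 0.20 and -2.73 ± 0.20), fell under both. So did Il33, the alarmin of stromal cells (-4.19 ± 0.24 and -2.75 ± 0.23), and C6h14orf180 (-6.19 ± 0.22 and -3.35 ± 0.18). No difference was called for Cemip and Cilp, and the call for Frem1 (-0.87) was lost in 6 of 35 alternative settings.

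Interferon-responsive genes rose under both drugs more often than they fell. Of 34, 24 rose and 2 fell under 5FU (median 0.66), 21 rose and 7 fell under Dox (median 0.57), and 17 rose under both. The difference was positive for 12 (35.3%) and negative for 9 (26.5%), against 35.8% and 35.4% of all genes. The peptide transporter Tap1 had 14.3 to 42 (median 16.7) CPM in DMSO1_24, 56.1 to 61.1 (median 59.5) in 5FU_24, 12.9 to 16.7 (median 15.8) in DMSO2_24 and 261 to 328 (median 300.01) in Dox_24. It rose in both arms without overlap, and the difference toward Dox was 2.77 ± 0.17 (FDR = 2.53e-23). Library 1 of DMSO1_24 was the highest control, at 42 CPM against at most 17.7 in the others. More under Dox rose also the transcription factor Irf7 (3.75 ± 0.14 and 1.06 ± 0.15) and Isg15, a ubiquitin-like modifier (2.72 ± 0.14 and 1.17 ± 0.15). Nlrc5, the activator of MHC class I genes, had the same order (4.63 ± 0.18 and 1.82 ± 0.20). The immunoproteasome subunits split. Psmb9 had 6.01 to 8.53 (median 6.81) CPM in DMSO2_24 and 68.3 to 91.8 (median 78.2) in Dox_24 and 7.44 to 10.05 (median 8.18) CPM in DMSO1_24 and 11.8 to 16.4 (median 13.1) in 5FU_24, whereas Psmb8 had 4.82 to 8.2 (median 7.65) CPM in DMSO2_24 and 1.93 to 3.2 (median 2.55) in Dox_24 and 6.14 to 7.28 (median 6.99) CPM in DMSO1_24 and 9.53 to 11.8 (median 10.2) in 5FU_24. Under 5FU both rose without overlap, and under Dox Psmb9 rose (3.45 ± 0.11) and Psmb8 fell (-1.5 ± 0.13). Irf9 and Ifi44 also fell under Dox and rose under 5FU (-0.42 ± 0.08 and 0.62 ± 0.08, -0.94 ± 0.13 and 0.48 ± 0.14). Rsad2 (viperin) rose under both (1.7 ± 0.26 under Dox and 2.65 ± 0.28 under 5FU), and the difference was not called (FDR = 0.0265).

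The interferon-stimulated response element, searched by its core on both strands, was in 19 of 28 promoters of this list (67.9%) against 2.6% of all. Tap1 and Irf7 rose under both drugs, and their windows are at chr20:4668630-4668689 on the minus strand and chr1:205800058-205800117 on the minus strand, with the element in capitals.
Tap1: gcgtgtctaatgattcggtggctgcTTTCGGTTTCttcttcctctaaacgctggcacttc
Irf7: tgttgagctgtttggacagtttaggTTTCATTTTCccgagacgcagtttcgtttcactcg

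Of the genes that 5FU moved most while the Dox effect was below 0.3 in size, Piezo2, a mechanosensitive channel, had 6.96 to 13.5 (median 11.8) CPM in DMSO1_24, 1.16 to 1.99 (median 1.44) in 5FU_24, 12.2 to 16.4 (median 13.1) in DMSO2_24 and 7.22 to 15.9 (median 13.7) in Dox_24. 5FU_24 lay wholly below its control and Dox_24 overlapped its own. The difference was 2.72 ± 0.21 (FDR = 1.43e-18). The stem cell marker Prom1 (-2.57 ± 0.17 under 5FU, 0.10 ± 0.12 under Dox), the collagen Col11a1 (-2.82 ± 0.18 and -0.21 ± 0.14) and Art4, an ADP-ribosyltransferase (-2.23 ± 0.09 and -0.20 ± 0.08), fell likewise. Adprhl1, a cardiac gene related to ADP-ribosylhydrolases, rose under 5FU (2.27 ± 0.18, Dox -0.18 ± 0.17), and so did Tg, thyroglobulin (2.72 ± 0.23, Dox -0.27 ± 0.25). Tg had 11 CPM in library 1 of DMSO1_24 and at most 2.88 in the others, and without that library its 5FU effect was 3.43.

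Except for Pmaip1, described above, the largest positive differences belonged to genes with group medians near or below 1 CPM outside Dox_24. Pmaip1 (7.24 ± 0.32) had medians of 2.93 CPM in DMSO1_24, 4.52 in 5FU_24 and 3.03 in DMSO2_24. Its difference ranked between those of Sp6 and Lratd1. Nkx6-1, a homeobox factor of islet and motor neuron development, had 0 to 0.11 (median 0) CPM in DMSO2_24 and 45.3 to 114 (median 85.8) in Dox_24 and 0 to 0.196 (median 0.0524) CPM in DMSO1_24 and 0 to 0.108 (median 0.0293) in 5FU_24. It was at the floor of 3 counts per library in DMSO1_24, 5FU_24 and DMSO2_24 and at least 474-fold above that floor in Dox_24. Bhlhe23, a basic helix-loop-helix factor, was at least 330.1-fold above it, with 44.7 to 62.5 (median 54.3) CPM in Dox_24. Above the floor, Sel1l3 (8.05 ± 0.64), Sp6, a zinc-finger factor (7.54 ± 0.65), Lratd1 (7.21 ± 0.46), Ppp2r2c, a subunit of the phosphatase PP2A (7.11 ± 0.62, or 6.28 without library 1 of DMSO1_24), the ubiquitin ligase gene Trim36 (6.97 ± 0.34) and LOC103690190 (6.93 ± 0.65) followed. In DMSO1_24, 5FU_24 and DMSO2_24, no library had more than 14 counts of Sel1l3, 10 of Sp6, 17 of Lratd1 or 11 of LOC103690190. Ppp2r2c and Trim36 had at most 23 there. The sizes of these differences therefore rest on few counts. Foxq1, a forkhead factor, was opposed, with 4.82 ± 0.18 under Dox and -2.14 ± 0.37 under 5FU. It had at most 6 counts in a library of 5FU_24 and 18 in DMSO1_24, against up to 716 in Dox_24. Its fall under 5FU thus also rests on few counts. Other genes that rose under Dox and fell under 5FU were the axon guidance gene Slit2 (2.22 ± 0.09 and -2.31 ± 0.11), Nt5dc2 (2.47 ± 0.10 and -2.28 ± 0.13), Nptx1, a pentraxin of synapses (4.34 ± 0.12 and -2.15 ± 0.20), the protocadherin gene Pcdh17 (1.93 ± 0.12 and -2.0 ± 0.17) and Gabre, a GABA receptor subunit (2.39 ± 0.16 and -1.67 ± 0.22). Slit2 had 14.7 to 23.2 (median 19.9) CPM in DMSO1_24, 3.17 to 4.8 (median 3.98) in 5FU_24, 23.1 to 26.5 (median 25) in DMSO2_24 and 95.3 to 140.3 (median 115) in Dox_24, with no overlap in either arm.

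At the other end were the genes with the largest negative differences. Cldn5, the tight junction protein of endothelium, had 14.7 to 24.4 (median 20.5) CPM in DMSO1_24, 5.22 to 8.25 (median 6.48) in 5FU_24, 19.5 to 33.7 (median 24.3) in DMSO2_24 and 0 to 0.173 (median 0) in Dox_24. Dox_24 was at the floor, at least 158-fold lower than its control, and the 5FU effect was -1.64 ± 0.25. Cdh5, the endothelial cadherin, fell under both as well (-3.66 ± 0.14 and -0.87 ± 0.13), whereas Eng, endoglin, rose under Dox (0.69 ± 0.07) and fell under 5FU (-1.21 ± 0.09). Lrrc10, a heart-specific leucine-rich repeat protein, had 31.9 to 81.3 (median 39.2) CPM in DMSO1_24, 19.2 to 24.8 (median 22.3) in 5FU_24, 40.5 to 54.9 (median 44.7) in DMSO2_24 and 0 to 0.804 (median 0.181) in Dox_24. Both drugs lowered Lrrc10, Dox to under 1 CPM, and the difference was -6.22 ± 0.44 (FDR = 5.34e-20). Sphkap, which anchors protein kinase A, fell from 509 to 547 (median 535) CPM in DMSO2_24 to 5.38 to 7.97 (median 6.63) in Dox_24, against -0.93 ± 0.10 under 5FU. Rxrg, a retinoid X receptor, and Asb18, an ankyrin repeat protein, fell under Dox (-4.79 ± 0.18 and -6.08 ± 0.23) with 5FU effects of 0.00 ± 0.14 and 0.01 ± 0.14. The other genes of this end were the ephrin receptor Epha3 (-5.55 ± 0.29), Fam163b (-5.97 ± 0.31), the butyrophilin-like gene Btnl9 (-5.45 ± 0.30), Atp6ap1l (-5.39 ± 0.20) and the fructosamine kinase Fn3k (-5.19 ± 0.26).

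Gtse1 and Ddias close the list of the largest shared rises. Gtse1, which restrains p53 in G2, had 12.4 to 88 (median 14.9) CPM in DMSO1_24, 116 to 132 (median 122) in 5FU_24, 11.8 to 14.8 (median 12.8) in DMSO2_24 and 177 to 247 (median 214) in Dox_24. Both drug groups lay above their controls, and the difference was 1.83 ± 0.31 (FDR = 4.25e-07), or 0.94 without library 1 of DMSO1_24, the highest control. Ddias, a suppressor of apoptosis after damage, rose by 4.64 ± 0.21 under Dox and 1.79 ± 0.22 under 5FU (2.46 without that library).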

How the data were processed

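RNA was selected for polyA tails and sequenced. The authors assigned reads to rat transcripts (Ensembl release 96) with kallisto 0.46.0, summed them per gene with tximport and dropped weakly counted genes, so the deposited values are estimated counts, not normalized. They are whole numbers for 14554 genes, of which 14009 have a symbol in the RefSeq annotation of GRCr8, used here for names and promoters only. Reads of near-identical genes may be divided uncertainly. The columns give the group but no replicate number, so libraries were numbered in file order as names. Cell viability, metabolite levels and the model were not used here.

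A filter of 10 counts in 1 or more libraries removed no gene. With TMM scaling, edgeR 4.0.16 (glmQLFit, glmQLFTest) in R 4.3.3 was used to fit 1 model of all 65 libraries and 10 groups. The other 39 libraries therefore enter only the TMM scaling and the estimate of the spread. Adjusted p-values are Benjamini-Hochberg FDR over all genes, with 0.01 as the threshold. A group with at most 3 counts in each library was taken as at the floor. The procedure was also run on simulated counts in which only 200 genes changed. Far more genes were called in these data, so that run does not show how scaling and calls behave here. Intervals are 95%, and they and the bounds cover these cultures only.

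The comparison, the 54 gene lists, the motifs and the genes named from lists were chosen with earlier results of these data known. Genes outside the lists were named by rule, among those that have a symbol and average 100 counts or more: the 10 most positive and 10 most negative differences; the 6 genes with the largest smaller effect in each of 4 classes (higher in both, lower in both and both opposed classes); and the 6 largest 5FU effects among genes with a called difference and a Dox effect under 0.3. Promoters were taken in order of the size of the difference among list members holding the motif. Alternatives were the DESeq2 1.42.0 Wald test, other scalings, filters and thresholds, a fit of the 26 libraries alone, other controls, and each library left out.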

Additional observations from a re-analysis of the deposited data

Results flagged for a closer look

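In each group of 6 or 7 libraries, the highest or lowest library was compared with its nearest neighbour for the total count and for the genes named by the rule, and 24 of 193 values stood further apart than Dixon's critical value at 95% allows. Chance gives about 1 in 20 such values. Of the 24, 12 were in library 1 of DMSO1_24 and 5 in library 7 of Dox_24.

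In library 1 of DMSO1_24, genes that 5FU raised were high. Cdkn1a stood at 699 CPM (nearest control 114), Gtse1 at 88 (16.3), Gdf15 at 58.5 (7.54), Ddias at 9.11 (2.46), Nlrc5 at 2.93 (1.18), Tg at 11 (2.88), Adprhl1 at 94.9 (47) and Hdhd5 at 29.9 (20.5). Genes that 5FU lowered were low there, with Col6a6 at 15.6 CPM (nearest control 48.7), Cilp at 12.2 (28), Frem1 at 13.8 (33.7) and Nt5dc2 at 16.3 (37.5). All 12 deviations pointed toward the 5FU_24 libraries. The cause was not tested.

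Library 7 of Dox_24 had 25738297 counts in total, 25.7 M against 17.9 M in the next. In it, Sel1l3 stood at 45 CPM (33.7), Lratd1 at 57.9 (90.6), Col11a1 at 7.87 (11.5) and Adprhl1 at 11.4 (33.1). The other values were single: Sp6 at 0.518 CPM in library 7 of DMSO2_24 (0.237), Mt1 at 21.1 in library 1 of DMSO2_24 (18.6), Ddias at 67.8 in library 6 of Dox_24 (57.8), C6h14orf180 at 0.623 in library 2 of Dox_24 (0.362), Ppp2r2c at 0.722 in library 6 of 5FU_24 (0.998), Nt5dc2 at 8.87 in the same library (7.72) and Gabre at 2.26 in library 4 of 5FU_24 (1.4). Genes named only from lists were not part of this comparison. Library 1 of DMSO1_24 lay outside the other controls for some of them. It had 69.4 CPM of Nqo1 (others 31.1 to 39.1) and 21 of Irf7 (8.01 to 14). It had 3.3 of Npr3 (9.03 to 12.1), 4.5 of Myc (10.6 to 14.1) and 26.2 of Aldh1l2 (54.7 to 66.3). Library 7 of Dox_24 lay below the other Dox_24 libraries for some list genes. It had 473 CPM of Myh7 (others 1094 to 1483), 23 of Xirp2 (52.8 to 74.5) and 811 of Cryab (1392 to 1643).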

How the results depend on the processing

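With 1 library left out at a time there were 10199 to 10324 genes with a called difference of effects, 11708 to 11886 DEGs of Dox, 7715 to 8304 of 5FU, 4163 to 4472 genes in the same direction, 2294 to 2492 in opposite directions, 1267 to 1399 with close effects and a correlation of 0.229 to 0.256. Without both libraries that stood apart, an alternative chosen after seeing the data, it was 0.252, and with DESeq2 0.249. With a minimum of 1 log2 unit the counts were 5335, 5688, 1490, 764, 175 and 60, and margins of 0.25 and 1 in place of 0.5 gave 318 and 2713 close effects. The other settings gave 10265 to 11594 called differences, 11791 to 12110 DEGs of Dox and 7985 to 9218 of 5FU. Among 26780 recomputed values of 260 genes, 144 lost and 131 gained a call and no called sign turned. Beside the calls given as lost above, the Dox effect on Slc7a11 and the 5FU effect on Psme4 each lost the call in 3 of 34 settings. The 5FU effect on Btnl9 lost it in 2, and those on Ndufs8, Bcl2l1 and Dusp1 in 1 each. Of 5562 list medians, 303 moved by more than the spread between libraries, and the drug efflux transporters turned sign, from a median difference of 0.08 to -0.074 with Dox_24 set directly against 5FU_24 and to -0.075 with the 13 DMSO libraries as 1 control group. The median difference of all genes was 0.07 with DESeq2's factors and 0.08 with library size only. No paired analysis was possible because the columns of the table carry no replicate numbers. With at least 14332827 counts per library, depth limits the genes of a few counts, whose folds are lower bounds.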

Other observations

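Cytosolic ribosomal proteins, translated from some of the most abundant messages, leaned toward Dox with small sizes. Of 57 measured, 36 rose and 4 fell under Dox, 3 rose and 18 fell under 5FU, and the difference was positive for 38 and negative for none (median 0.42). Rpl3 had 499.7 to 1118 (median 1067) CPM in DMSO1_24 and 338 to 376 (median 349) in 5FU_24, the lowest 5FU effect of those named (-1.45 ± 0.09), and also fell under Dox (-0.50 ± 0.08). Rps9 and Rpl6 fell under 5FU (-0.53 ± 0.08 and -0.47 ± 0.06) and rose under Dox (0.33 ± 0.07 and 0.42 ± 0.06). Of 44 splicing factors, 14 had positive and 16 negative differences (31.8% and 36.4%), near the shares over all genes (35.8% and 35.4%). The serine-arginine proteins Srsf5 and Srsf7 rose under Dox (1.1 ± 0.07 and 1.15 ± 0.05) and fell under 5FU (-0.86 ± 0.08 and -0.47 ± 0.06), and Srsf1 and Hnrnpdl did the reverse (-1.06 ± 0.05 and -0.78 ± 0.06 under Dox, 0.32 ± 0.05 and 0.93 ± 0.06 under 5FU).

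Of 26 targets of NRF2, the factor of the antioxidant response, 17 rose under Dox and 10 under 5FU, with 14 positive and 6 negative differences. Heme oxygenase Hmox1 had 68.3 to 87.7 (median 71) CPM in DMSO1_24, 70.4 to 82.5 (median 78.7) in 5FU_24, 56.5 to 69.3 (median 65.1) in DMSO2_24 and 153 to 378 (median 259.8) in Dox_24, a difference of 1.93 ± 0.19 (FDR = 5.21e-14). Only Dox_24 stood apart from its control. The quinone reductase Nqo1 rose under both (2.66 ± 0.10 and 1.2 ± 0.11), and glutathione reductase Gsr fell under Dox and rose under 5FU (-1.36 ± 0.06 and 0.96 ± 0.06). In the heat shock list, 9 of 23 differences were positive (39.1%) and 6 negative (26.1%), against 35.8% and 35.4% of all genes. Its inducible chaperone Hspa1b, which shares reads with a near-identical copy, rose by 5.7 ± 0.12 under Dox and 1.26 ± 0.13 under 5FU. Among 36 genes of pyrimidine metabolism and 5FU handling, 19 had positive and 12 negative differences (52.8% and 33.3%). Upp1, a uridine phosphorylase that also activates 5FU, rose under Dox and fell under 5FU (2.35 ± 0.08 and -0.43 ± 0.09), and Tyms, the thymidylate synthase that 5FU blocks, had 31.3 to 57.8 (median 33.2) CPM in DMSO1_24 and 37.2 to 42.9 (median 39.6) in 5FU_24 with an effect of 0.09 ± 0.08 (FDR = 0.338). Library 1 of DMSO1_24 stood at 57.8 CPM and the other controls at 31.3 to 35.3, below all 5FU_24 libraries, and without library 1 the effect on Tyms was 0.26 (FDR = 8.95e-05). Of 7 topoisomerases, none was a DEG of 5FU.

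Of 32 chemokine, cytokine and NF-kB genes, 19 rose under Dox and 8 under 5FU (59.4% and 25%, where 40.4% and 28% of all genes did). Il6, at 3 counts or fewer in DMSO1_24, 5FU_24 and DMSO2_24, is among the genes counted. Lif, a cytokine of the interleukin-6 family, had 1.97 to 2.81 (median 2.37) CPM in DMSO2_24 and 53.9 to 99.4 (median 85.4) in Dox_24 and 1.84 to 7.38 (median 2.16) CPM in DMSO1_24 and 6.03 to 7.85 (median 6.91) in 5FU_24, with the highest control in library 1 of DMSO1_24. Cx3cl1, a membrane chemokine, rose under Dox (2.36 ± 0.11) and was at -0.01 ± 0.12 under 5FU, and Vcam1, a leukocyte adhesion molecule, fell under both (-2.12 ± 0.12 and -0.68 ± 0.12). Markers of red blood cells rose under both drugs, all 4 of them, with summed medians of 24.4 CPM in DMSO2_24, 134 in Dox_24, 32.2 in DMSO1_24 and 68.5 in 5FU_24. Among them Slc4a1, the band 3 anion exchanger, had 3.35 to 6.63 (median 5.01) CPM in DMSO2_24 and 55.6 to 85.6 (median 77.2) in Dox_24. Of the 10 smooth muscle and pericyte markers 6 fell and 3 rose under Dox and 7 fell and 2 rose under 5FU, and Myh11, the smooth muscle myosin, rose under both (2.69 ± 0.11 and 1.48 ± 0.12).

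Other promoter motifs were counted in the same way and are descriptions only. The CCAAT box was in 38 of 57 G2/M promoters (66.7%, against 34.8% of all), and the E2F letters TTTGGCGC were in 6 of 39 replication promoters (15.4%, against 0.71%) and TTTCCCGC in 3 of 39 (7.69%, against 1.65%). A pair of p53 core letters at a fixed spacing was in 0 of 31 promoters of p53 targets (0.158% of all), and the sterol element TCACNCCAC in 0 of 17 sterol promoters (1.04% of all), which says only that these letters are not in the 250 bases searched.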
